A study of Mus musculus with 2 samples.

Results

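The 40 genes described here belong to the interferon response, to antigen presentation by the major histocompatibility complex (MHC) and to NF-kB signalling. They were taken as a named list and not picked by a measured value, but the list was chosen with earlier results of these data known. These genes are 40 of the 21857 mouse genes with an annotated protein-coding start site. They comprise 8 transcriptional regulators, 3 sensing genes, 14 interferon-induced effectors, 6 class I genes, 5 class II genes and 4 NF-kB genes. The sensing genes, called sensors below, are Tlr3, Ifih1 and the adaptor gene Myd88. Open chromatin was measured by DNase-seq, in which the enzyme DNase I cuts exposed DNA and the cut sites are sequenced. The tissue was whole gastrocnemius, a calf muscle, from adult males of the F1 hybrid strain B6CASTF1/J. The mice were 18 to 20 months old, and all samples shared that strain, sex and age. There were 2 samples in 1 group, biological replicates 1 and 2, with no treated, younger or other control group. They had 1 donor label between them and a biosample label each, so the spread between them may not be that between animals. No difference between groups could be tested, and the values that follow are a description of this 1 group.

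Interferons bind receptors that signal through Janus kinases to STAT proteins. A complex that includes STAT2 and IRF9 binds the interferon-stimulated response element (ISRE) in the promoters of antiviral genes, and STAT dimers bind the gamma-activated site (GAS). NF-kB dimers are held in the cytoplasm by inhibitors such as the product of Nfkbia until a stimulus releases them. MHC promoters carry an X box, which includes a site for CREB-like proteins, and a Y box, which is an inverted CCAAT box bound by NF-Y. The factors bound there recruit NLRC5 at class I genes and CIITA at class II genes. Healthy muscle fibres are known for low MHC class I and for lacking class II at the surface.

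Replicate 1 had 131398 peaks and replicate 2 had 91567 peaks in the larger of the 2 deposited peak lists. Peak signal is in the authors' unit, whose scale is not stated, and was scaled in each replicate on its own. Ranks are therefore given as percentiles among the genes with a promoter peak in that replicate, where a promoter is 1000 bp on either side of a protein-coding start site. The tissue label was checked on markers, and the share of all genes with a promoter peak in both replicates, 62.4%, is the background for these counts. All 10 muscle fibre markers had a promoter peak in both replicates, with signals from 2.63 to 6.06 in replicate 1 and from 2.11 to 6.47 in replicate 2. All 7 endothelial markers had one too, with signals from 0.365 to 1.51 and from 0.369 to 1.84. Of 10 macrophage markers 6 had one in both, at 0.299 to 0.731 and 0.453 to 1.12, and Csf1r, Ptprc, Itgam and Fcgr1 had none in either. Zbtb46 and Pax5 were the 2 of 7 dendritic and B cell markers with one in both, and 0 of 6 T and NK cell markers had one in both. Median percentiles of the muscle fibre markers were 56.3 in replicate 1 and 40.7 in replicate 2. They thus ranked above the middle open promoter in replicate 1 and below it in replicate 2. Immune cells are a usual source of several of these 40 genes, and their part in the results was not tested. In whole tissue, fewer open cells and less open chromatin per cell cannot be told apart.

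Most of the 40 promoters were open. A promoter peak was present in 37 of 40 genes in replicate 1, against 65.6% of all genes, and in 35 of 40 in replicate 2, against 63.5% of all genes. In both replicates it was present in 35 of 40 (87.5%), against 62.4% of all genes. Promoters rich in CpG dinucleotides are open in most tissues, so the counts were split by CpG content. All 12 CpG-rich promoters of the list were open in both replicates, against 92.7% of all CpG-rich genes. Among the 28 CpG-poor promoters of the list 23 (82.1%) were, against 37.9% of all CpG-poor genes. The difference in share from all genes was thus widest among CpG-poor promoters. The median signal of the strongest promoter peak was 2.94 in replicate 1 and 3.37 in replicate 2 for the list, against 3.16 and 3.41 for all genes with a promoter peak. The list was higher than all genes in the CpG-rich class and lower in the CpG-poor class. Among CpG-rich genes with a peak the medians were 5.26 and 6.28 for the list, against 3.92 and 4.20 for all such genes. Among CpG-poor genes with a peak they were 1.51 in both replicates for the list, against 1.91 and 2.11 for all such genes. The replicates ranked the 35 genes alike, with a median difference of 2.57 percentile points, against 2.98 points for all genes with a peak in both. The widest gap was at H2-Ab1, at percentile 33.1 in replicate 1 and 21.2 in replicate 2.

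**Figure D1:**
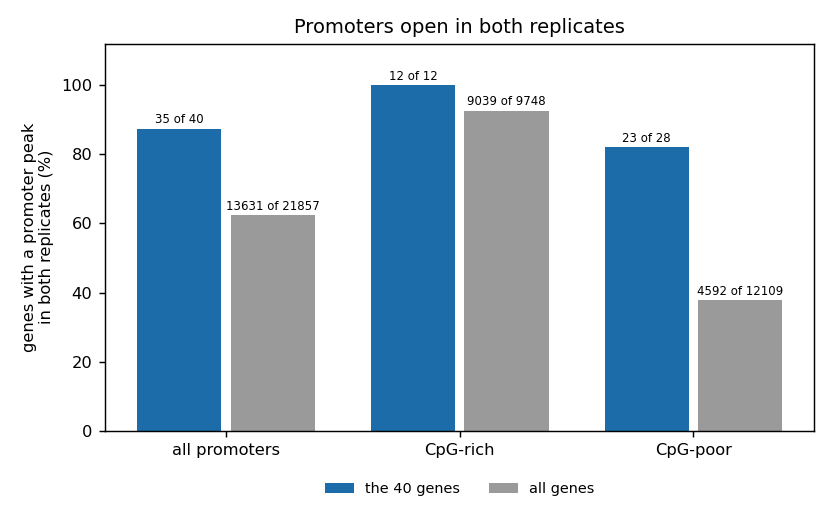
Percent of genes with a promoter peak in both replicates, for the 40 genes (blue) and all genes (grey), over all promoters and split into CpG-rich and CpG-poor ones; numbers above the bars are counts. The bars differ most for CpG-poor promoters, 82.1% of the 40 genes' against 37.9% of all genes'.

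The roles differed in signal. Median signals were 4.20 and 4.80 in replicates 1 and 2 for regulators, 1.09 and 1.23 for sensors, 1.37 and 1.44 for effectors, 4.71 and 5.38 for class I, 2.25 and 2.89 for class II and 5.06 and 6.24 for NF-kB genes. The medians of sensors, effectors and class II genes thus lay below the all-gene medians, and those of the other roles above them. All 14 effectors and all 5 class II genes were CpG-poor, and all 4 NF-kB genes were CpG-rich, so role and CpG content cannot be told apart for these.

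**Figure D2:**
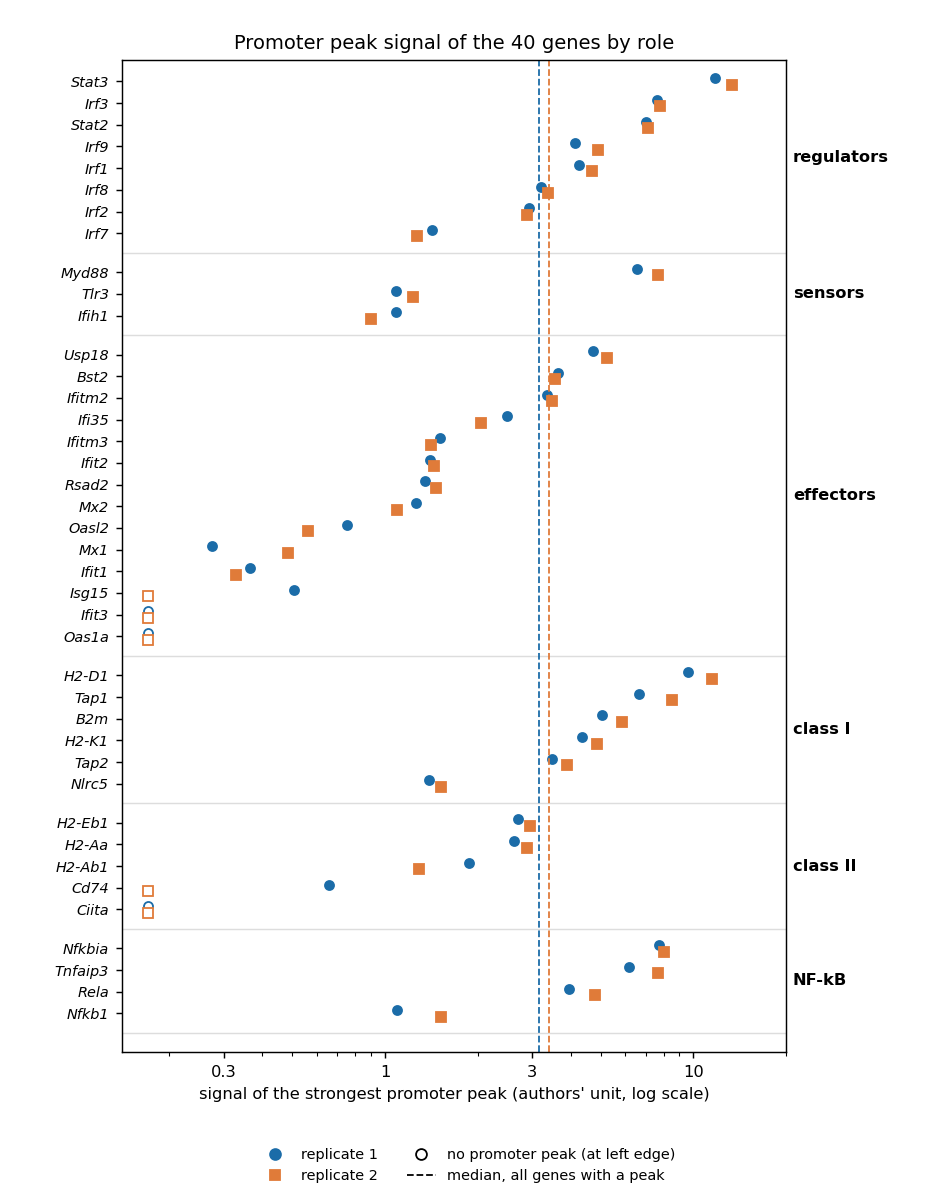
Signal of the strongest promoter peak (authors' unit, log axis) for each of the 40 genes by role, with replicate 1 as circles and replicate 2 as squares; open symbols at the left edge mark a gene with no promoter peak and dashed lines mark the medians of all genes with one. Class I and NF-kB genes lie mostly right of the dashed lines, effectors mostly left of them, and Ifit3, Oas1a and Ciita have open symbols in both replicates.

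All 8 regulators were open in both replicates. Stat3, which carries signals of interleukin-6 family cytokines, had the highest signal of the 40 genes, 11.7 in replicate 1 and 13.4 in replicate 2 (percentiles 99.0 and 99.1). Its replicate 1 peak spanned chr11:100939441-100939820 on mm10, over the start site of the gene on the minus strand. Stat2, the STAT of the ISRE-binding complex, had signals of 7.01 and 7.11. Irf9, its DNA-binding partner, had 4.14 and 4.91. Stat2, Stat3 and Irf9 thus all lay above the all-gene medians.

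Of the interferon regulatory factors (IRFs), Irf3, the constitutively made factor that sensors activate, had signals of 7.62 and 7.80, at a peak it shares with the start of Bcl2l12. Irf1, an activator induced by interferon gamma, had 4.25 and 4.70. Irf8, best known from myeloid and B cells, had 3.20 and 3.37, near the all-gene median. Irf2, which competes with Irf1 for its sites, had 2.94 and 2.89, and Irf7, the interferon-induced amplifier of type I interferon, had 1.42 and 1.27. Irf7 was thus the lowest regulator in both replicates, at percentiles 26.5 and 20.9. Footprints, which are short stretches protected from cutting, lay on a CCAAT box in Stat2, Stat3 and Irf1 in both replicates. In replicate 2 the box of Stat3 lay outside the called peak (chr11:100939701-100939820) but inside the 300 bp window that was searched. The stretches around the box are shown for Stat2 (chr10:128270398-128270427, plus strand) and Irf1 (chr11:53769926-53769980, plus strand). These 2 were chosen because they act upstream of most others in the list. Capitals mark the footprinted match.
Stat2: tctccctctccgCCAATcactgaagtcggc
Irf1: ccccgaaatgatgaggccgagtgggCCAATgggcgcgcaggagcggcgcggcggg

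The 3 sensors were all open. Myd88, the adaptor of most Toll-like receptors, had signals of 6.56 and 7.69. That peak also lay at the start of Acaa1a and its midpoint was 1163 bp in replicate 1 and 1203 bp in replicate 2 upstream of the RefSeq start of Myd88. The peak nearest the RefSeq start was lower, with 1.38 in replicate 1 and 2.07 in replicate 2. Tlr3, the receptor of double-stranded RNA in endosomes, had 1.09 and 1.23. Ifih1, a cytoplasmic sensor of double-stranded RNA, had 1.09 and 0.900. Tlr3 and Ifih1 lay between percentiles 14.7 and 21.6, below most open promoters.

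Among the 14 effectors 12 had a promoter peak in replicate 1 and 11 in replicate 2, all 11 of them shared. The strongest was at Usp18, which removes ISG15 from proteins and dampens receptor signalling, with signals of 4.71 and 5.26. Bst2, which tethers budding virus particles, had 3.64 and 3.57. Ifitm2 and Ifitm3 code for membrane proteins that block viral entry. Ifitm2 had 3.35 and 3.49, from different peaks in the 2 replicates, and Ifitm3 had 1.51 and 1.41. Ifi35, an interferon-induced leucine zipper protein, had 2.49 and 2.04. Usp18, Bst2 and Ifitm2 lay above the all-gene medians in both replicates, with Usp18 at percentiles 67.1 and 69.4.

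The classic antiviral effectors had low signals. Ifit2, which binds foreign RNA, had 1.40 and 1.44, and Rsad2, which makes a chain-terminating nucleotide, had 1.35 and 1.46. Mx2, a dynamin-like GTPase, had 1.26 and 1.10. Oasl2, of the oligoadenylate synthetase family, had 0.751 and 0.565. Ifit1 had 0.365 and 0.330 and Mx1, a GTPase that blocks influenza virus, had 0.274 and 0.486. The last 3 sat at percentiles 1.57 to 15.9. In the stricter of the deposited peak lists Oasl2, Ifit1 and Mx1 no longer had a promoter peak in both replicates.

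Isg15, the ubiquitin-like modifier, had a weak promoter peak in replicate 1, with a signal of 0.508, and none in replicate 2. Ifit3 and Oas1a had none in either replicate, and no site in their promoters had a false discovery rate below 0.05. Ifit genes and Oas genes form families of similar copies, and how reads from the 2 parental genomes and from such copies mapped was not tested. Without a depth, a missing peak shows that none was called, not that the promoter was closed.

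Rsad2 was the 1 gene of the list with an ISRE under a footprint at the same place in both replicates, 116 bp upstream of its start. The stretch chr12:26456538-26456597 is written along the minus strand of the gene, so the ISRE, searched as GAAANNGAAA on both strands, reads as its reverse complement. Ifit1, which had a pair of ISREs under footprints in replicate 1 alone, is shown beside it (chr19:34640785-34640814, plus strand). Capitals mark footprinted matches.
Rsad2: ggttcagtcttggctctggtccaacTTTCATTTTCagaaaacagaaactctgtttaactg
Ifit1: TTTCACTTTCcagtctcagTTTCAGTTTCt

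All 6 class I genes were open in both replicates. H2-D1, a classical class I heavy chain, had 9.59 and 11.5 (percentiles 96.0 and 97.5). The peak chr17:35262901-35263080 was the same interval in both replicates, lay in the first annotated exon of a longer GENCODE transcript and had its midpoint 103 bp upstream of the RefSeq start. H2-K1, the other heavy chain, had 4.35 and 4.86. Its peak midpoint was 34 bp upstream of the 5′-most start and 238 bp downstream of the RefSeq gene start. B2m, the light chain of class I molecules, had 5.07 and 5.89. The promoters of H2-K1 and H2-D1 were alike, with an identical run of 47 bp in the 250 bp upstream of their RefSeq starts. Where that run lies relative to the peaks is not given here. Reads from such copies may have been split or lost. The heavy and light chain genes all ranked at percentile 63.6 or above in both replicates.

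Tap1 and Tap2 code for the transporter that carries peptides into the endoplasmic reticulum. Tap1 had signals of 6.65 and 8.51, at a peak that also serves Psmb9, an immunoproteasome subunit on the opposite strand. Tap2 had 3.47 and 3.90, with the peak midpoint 12 bp downstream of its RefSeq start. Nlrc5, the transactivator of class I genes, had 1.39 and 1.51 and was the lowest of the 6. The transactivator promoter therefore ranked at percentiles 25.9 and 24.6, below those of the class I genes it acts on.

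In 3 of the 6 class I promoters the letters of an X box and a Y box lay at the same distance. In B2m, H2-K1 and H2-D1 a CRE core, searched as TGACG on either strand, lay 20 bp from an inverted CCAAT box. That CRE core was under a footprint in both replicates in all 3. The CCAAT box was under one in both replicates in H2-K1, in replicate 2 alone in B2m and in neither in H2-D1. Tap1 had a footprinted CRE core in both replicates, 80 bp upstream of its start, without a CCAAT box within 30 bp. Tap2 and Nlrc5 held neither of these letters in their 300 bp windows. The stretches are shown because they let the spacing be read directly, with capitals for matches under a footprint in at least 1 replicate. Coordinates are chr2:122147523-122147663 (B2m, plus strand), chr17:34000359-34000388 (H2-K1, minus strand), chr17:35262993-35263022 (H2-D1, plus strand) and chr17:34187458-34187487 (Tap1, plus strand).
B2m: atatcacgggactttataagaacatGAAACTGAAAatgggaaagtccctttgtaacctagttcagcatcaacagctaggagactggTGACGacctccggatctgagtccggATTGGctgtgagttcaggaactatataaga
H2-K1: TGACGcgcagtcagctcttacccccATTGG
H2-D1: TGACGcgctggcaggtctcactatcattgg
Tap1: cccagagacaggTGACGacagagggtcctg

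Further upstream, the first capitals in B2m are an ISRE, under a footprint in replicate 1 alone. An NF-kB match follows it and was under no footprint in either replicate. H2-D1 held an NF-kB match under a footprint in both replicates, 166 bp upstream of its RefSeq start, shown at chr17:35262914-35262943. H2-K1 held such a match under a footprint in replicate 2 alone. The capitals of H2-D1 cover a pair of overlapping matches.
H2-D1: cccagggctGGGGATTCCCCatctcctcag

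Of the 5 class II genes 4 had a promoter peak in replicate 1 and 3 in replicate 2, and none of them exceeded the all-gene median. H2-Eb1 had signals of 2.70 and 2.95, H2-Aa had 2.62 and 2.89, and H2-Ab1 had 1.87 and 1.29. These 3 code for the chains of the peptide-binding dimers and had peaks in both replicates. Cd74, the invariant chain that guides class II molecules, had a signal of 0.660 in replicate 1 and no promoter peak in replicate 2. Ciita, the class II transactivator, had no promoter peak in either replicate and no site below 0.05 within 1000 bp of any of its 6 start sites. The chain genes were thus open while the transactivator's promoter was not called. Class II genes are usually expressed by dendritic cells, B cells and activated macrophages. Of the dendritic and B cell markers 2 of 7 were open in both replicates, and of the macrophage markers 6 of 10, against 62.4% of all genes. Median percentiles of the open macrophage markers were 11.5 in replicate 1 and 7.69 in replicate 2. For the 2 dendritic and B cell markers they were 30.2 and 35.5. The part of these cells here was not tested.

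Letters of the X and Y boxes also lay at H2-Aa and H2-Eb1, and of these letters H2-Ab1 held CCAAT boxes alone. H2-Aa held a full palindromic CRE 18 bp from a CCAAT box, with both under footprints in both replicates. H2-Eb1 held the X1 core TAGCAAC, 90 bp upstream of its start, and an inverted CCAAT box, 56 bp upstream, each under a footprint in both replicates. H2-Ab1 held a CCAAT box in the direct orientation, 34 bp upstream of its start, under a footprint in both replicates. Its inverted CCAAT box, 24 bp upstream, was under a footprint in replicate 1 alone. In replicate 2 both H2-Ab1 boxes lay just outside the called peak. H2-Aa (chr17:34287842-34287922, minus strand) and H2-Eb1 (chr17:34305749-34305837, plus strand) are shown for the order of the boxes, with capitals for matches under footprints in both replicates.
H2-Aa: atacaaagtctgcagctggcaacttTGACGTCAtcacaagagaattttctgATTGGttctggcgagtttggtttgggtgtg
H2-Eb1: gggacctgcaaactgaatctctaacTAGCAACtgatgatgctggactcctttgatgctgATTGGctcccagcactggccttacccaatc

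**Figure D3:**
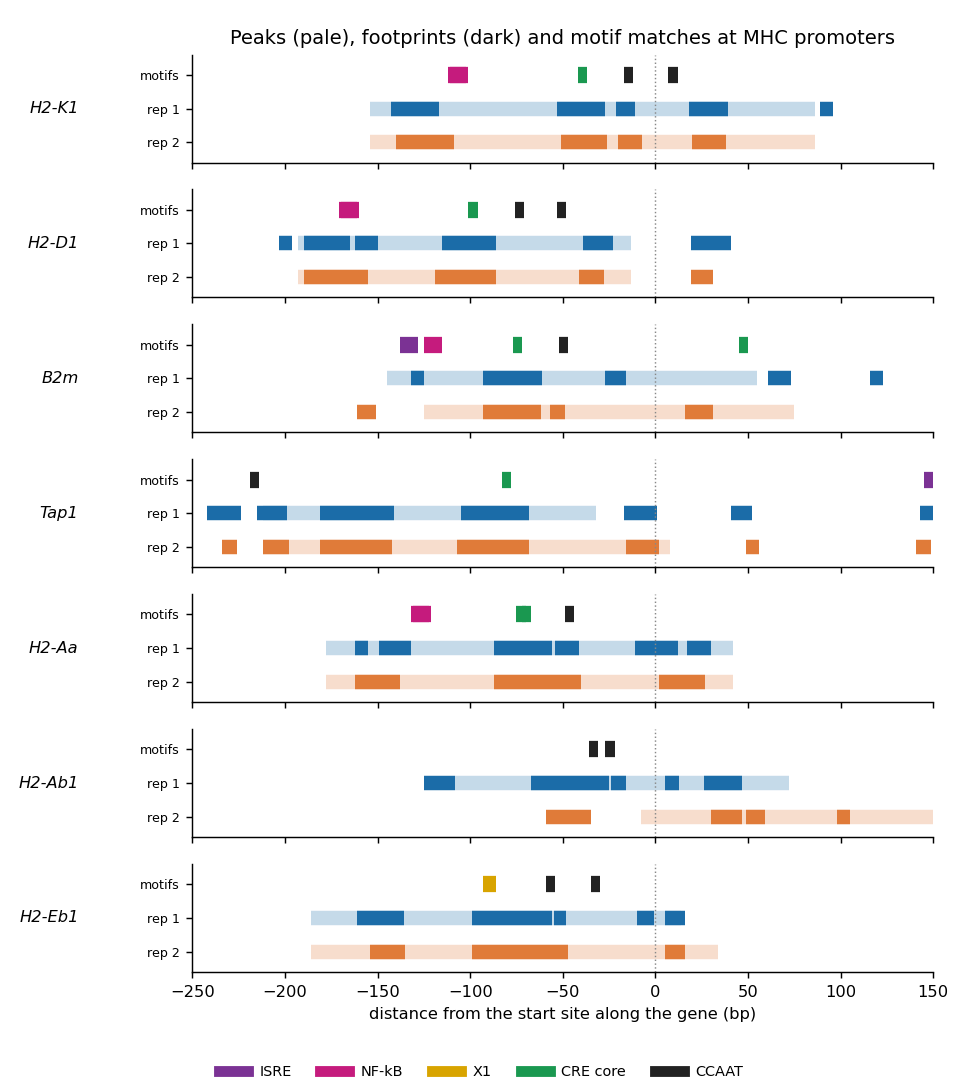
Called peaks (pale bars), footprints (dark bars) and motif matches around the start sites of 4 class I and 3 class II genes; the horizontal axis is distance from the start site in bp along the gene (RefSeq start for H2-D1, 5′-most GENCODE protein-coding start for the others), with 1 row for matches and 1 row for each replicate. The CRE cores (green) upstream of the start of H2-K1, H2-D1, B2m, Tap1 and H2-Aa sit over dark bars in both replicates, while the one downstream of the start of B2m does not; the X1 core (yellow) of H2-Eb1 also sits over dark bars in both.

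The pairing of a CRE core with a CCAAT box was looked for in all genes after it had been seen in these promoters, in 300 bp around the strongest promoter peak. A pair within 30 bp was present in both replicates in 4 of the 35 open genes, against 5.82% of all open genes. The 4 were B2m, H2-K1, H2-D1 and H2-Aa. Both elements were under footprints in both replicates in H2-K1 and H2-Aa, 2 of 35, against 1.38% of all open genes. Since the pair was chosen on these promoters, its count in them is a description.

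All 4 NF-kB genes had CpG-rich promoters that were open in both replicates, against 92.7% of all CpG-rich genes. Nfkbia, the inhibitor that NF-kB itself induces, had signals of 7.73 and 8.03. This peak, chr12:55491861-55492080, lay inside the gene with its midpoint 676 bp from the start, and a second peak over the start had 6.55 and 7.26. Tnfaip3, another induced inhibitor, had 6.18 and 7.69. Rela, a transactivating subunit, had 3.94 and 4.79, and Nfkb1, which codes for a DNA-binding subunit, had 1.09 and 1.52. The inhibitors thus ranked above the subunits, at percentiles 80.1 to 89.4 against 21.7 to 65.0.

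Nfkbia and Tnfaip3 each held a match to the NF-kB consensus under a footprint in both replicates. That of Nfkbia lay in an intron, 685 bp from the start, in the window around the intronic peak. The peak over the start of Nfkbia was not searched, and a match also lay within 250 bp before to 50 bp after its RefSeq start. The footprinted match of Tnfaip3 lay 126 bp downstream of the 5′-most start and 121 bp upstream of the RefSeq start. A second match of Tnfaip3, 8 bp upstream of the RefSeq start, was under no footprint in either replicate. The footprinted matches are shown because these 2 inhibitors are known targets of NF-kB. They are at chr12:55491947-55491976 (Nfkbia) and chr10:19015516-19015545 (Tnfaip3), both minus strand, with the match in capitals.
Nfkbia: ggtggggcacGGAAAGTCCCtgggcggctg
Tnfaip3: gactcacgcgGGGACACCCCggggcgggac

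Over the 35 open genes, ISRE, GAS and NF-kB motifs were present at larger shares than over all open genes, and few of the matches were footprinted at the same place in both replicates. An ISRE was in the 300 bp window in both replicates in 11 of 35 (31.4%), against 2.11% of all open genes. Those 11 were Irf2, Ifih1, Ifit1, Oasl2, Rsad2, Bst2, Usp18, Ifitm3, Nlrc5, Tap2 and B2m. It was under a footprint in both replicates in Rsad2 alone, 1 of 35, against 0.396% of all open genes. In replicate 1 the ISRE was footprinted in 6 of the 13 genes that held it, against 31.4% of all genes that held it, and in replicate 2 in 3 of 11, against 26.5%.

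GAS, searched as TTCNNNGAA, was in the window in 8 of 35 (22.9%), against 5.22% of all open genes, in Irf1, Irf2, Irf8, Irf9, Oasl2, Bst2, Ifi35 and Ifitm3. It was under a footprint in both replicates in 0 of 35, against 1.53% of all open genes. In single replicates it was footprinted in 0 of 8 and 0 of 9 genes of the list that held it, against 34.7% and 35.7% of all genes that held it. The NF-kB consensus was present in 11 of 35 (31.4%), against 9.72% of all open genes, and footprinted in H2-D1, Nfkbia and Tnfaip3, 3 of 35, against 3.15%. In replicate 1 it was footprinted in 4 of the 13 genes that held it, against 40.8% of all genes that held it, and in replicate 2 in 5 of 11, against 38.9%. These motifs are part of how the genes are known, so their presence restates the choice of the list.

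The X1 core was footprinted in 1 of 35, H2-Eb1, against 1.14% of all open genes. A CCAAT box was present in 14 of 35, against 36.2% of all open genes, and footprinted in 8 of 35, against 14.3%. In replicate 1 the box was footprinted in 10 of the 17 genes that held it, against 48.8% of all genes that held it. In replicate 2 these were 10 of 14, against 47.0%. The 8 were Stat2, Stat3, Irf1, Myd88, H2-K1, H2-Aa, H2-Ab1 and H2-Eb1. In Stat3 and H2-Ab1 the box lay outside the called peak in replicate 2. In Myd88 it lay at the peak shared with Acaa1a, 1172 bp upstream of the RefSeq start of Myd88. The peak nearest that RefSeq start was not searched, although the RefSeq promoter sequence of Myd88 held an ISRE and a GAS. A CRE core was present in 9 of 35 (25.7%), against 32.0%, and footprinted in 5 of 35 (14.3%), against 15.4%. Both CRE shares were thus below those of all open genes. The 5 were Tap1, B2m, H2-K1, H2-D1 and H2-Aa, all of the MHC class I or class II groups. Irf3 and Ifih1 had a footprinted CRE core in replicate 1 alone, and Stat3 and Nfkb1 in replicate 2 alone. In each replicate the core was footprinted in 7 of the 10 genes that held it, against 55.3% and 54.7% of all genes that held it. A match describes the letters in the reference genome and does not show which protein was bound.

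**Figure D4:**
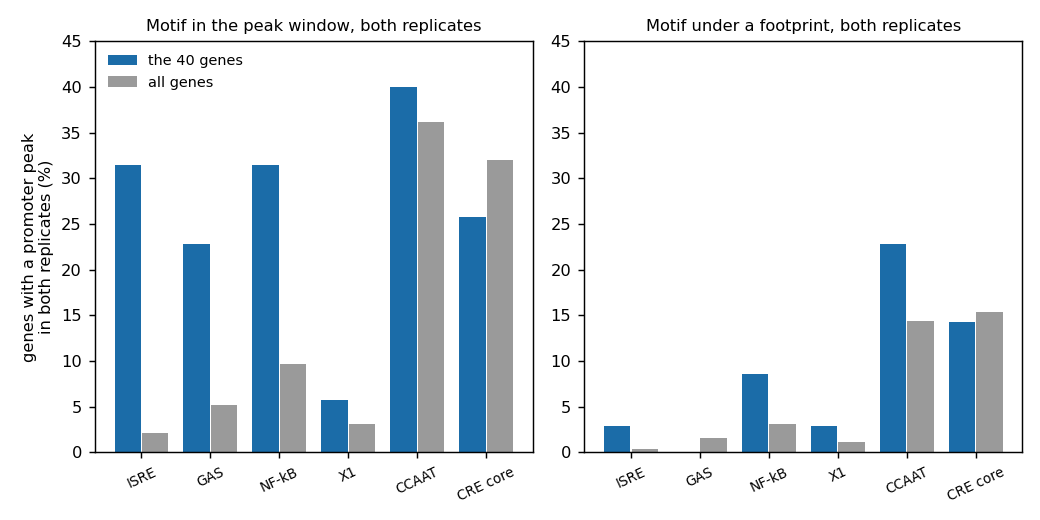
Percent of genes with a promoter peak in both replicates whose 300 bp peak window held each motif (left) and held it under a footprint (right), in both replicates, for the 40 genes (blue, 35 with such a peak) and all genes (grey, 13631 with such a peak). ISRE, GAS and NF-kB bars of the 40 genes exceed the grey ones on the left, and no blue bar is seen for GAS on the right.

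A footprint of any kind lay in a promoter peak in both replicates in 35 of 35 open genes of the list, against 97.5% of all open genes. The RefSeq promoter sequences, from 250 bp before to 50 bp after the start, were available for 31 of the 40 genes. An ISRE was in 13 of 31, against 4.02% of 16519 genes, and in 8 of the 11 effectors with a sequence. Isg15, Ifit3 and Oas1a, which lacked a promoter peak in 1 or both replicates, each held one. The presence of an ISRE thus did not separate the open effectors from those without a call.

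Most of the genes also had open sites away from start sites. Within the gene body and 10 kb on either side, 29 of 40 genes (72.5%) had a peak shared by both replicates with no protein-coding start within 1000 bp, against 58.5% of all genes. There were 134 distinct such peaks in replicate 1 and 123 in replicate 2, and 87 of those of replicate 1 overlapped a peak of replicate 2. Irf2 had 13 shared peaks, Stat3 had 6, and Irf1 and Ifih1 had 5 each. Longer genes span more peaks, and the count was not scaled to length. Ciita, without a promoter peak, had 3 shared peaks, 2 of them in an intron at 41342 and 42952 bp from its 5′-most start. Their signals were 1.44 and 1.07 in replicate 1 and 1.58 and 1.45 in replicate 2.

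Taking the strongest shared site of each gene, the highest belonged to H2-D1. It lay at chr17:35258241-35258440, 4389 bp upstream of the 5′-most start, with signals of 6.66 in replicate 1 and 7.60 in replicate 2. An exon of Stat3 at 45909 bp from the start had 4.77 and 4.20. A site 6143 bp upstream of Irf1 had 3.87 and 4.36. These 3 lay at percentile 93.0 or above among all peaks in both replicates.

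The next 5 genes by their strongest shared site were 4 effectors and Irf2. A site downstream of Usp18 had 3.20 and 2.72, and a site in an exon of Rsad2, 12201 bp from the start, had 2.48 and 2.94. One downstream of Ifitm3, 1569 bp from its start, had 2.49 and 2.92. An intron of Irf2, 103069 bp from the start, had 2.54 and 2.25, and a site 2523 bp upstream of Ifit2 had 2.15 and 2.47. At Rsad2, Ifit2 and Ifitm3 this site had a higher signal than the promoter peak of the same gene in both replicates.

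The replicates disagreed in the number of weak sites at 2 MHC genes. Tap2 had 3 peaks away from start sites in replicate 1 and 21 in replicate 2, and 19 of the 21 overlapped no peak of replicate 1. H2-Ab1 had 3 and 13, and 10 of the 13 overlapped none. The median signal of these added peaks was 0.179 at Tap2 and 0.140 at H2-Ab1, at percentiles 4.34 and 2.83 of all peaks of replicate 2. Conversely Nfkb1 had 11 such peaks in replicate 1, of which 8 overlapped none in replicate 2.

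**Figure D5:**
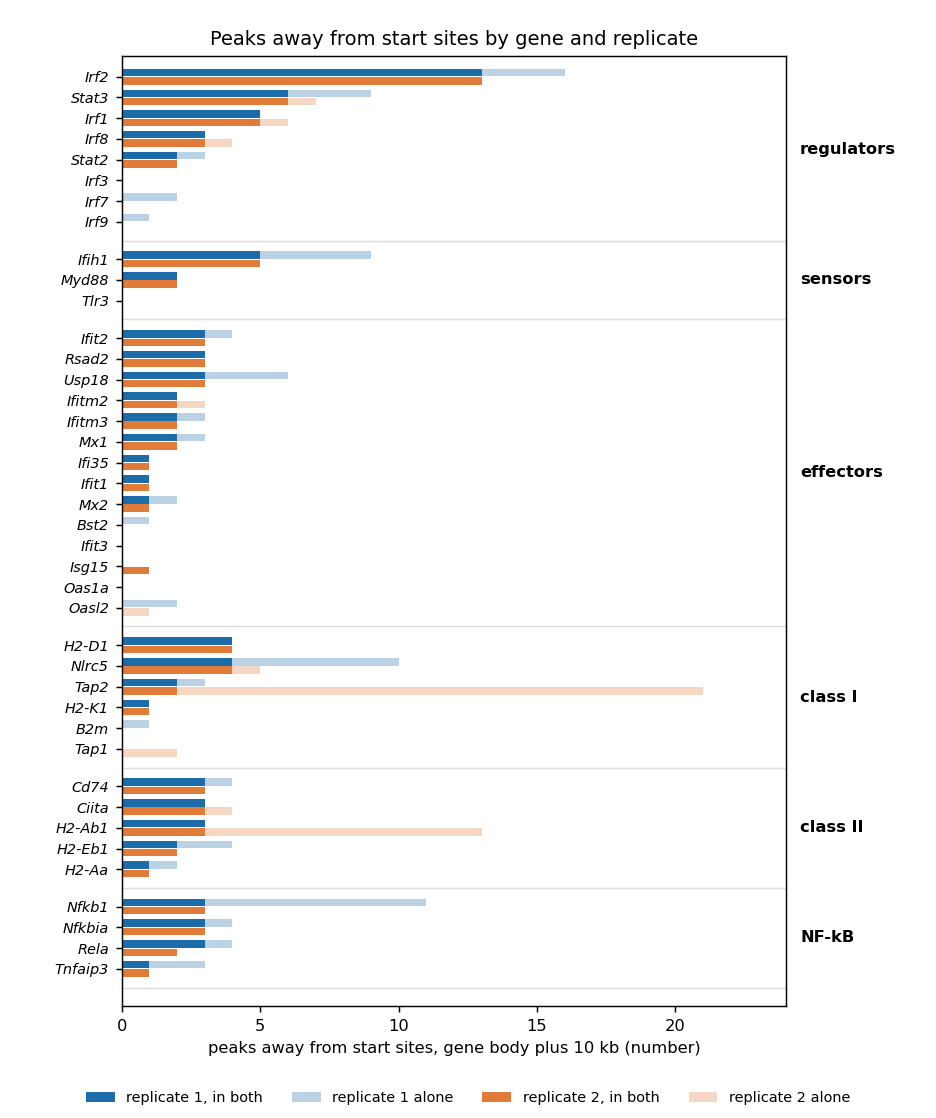
Number of peaks without a protein-coding start site within 1000 bp, in each gene body plus 10 kb, for replicate 1 (blue, upper bar) and replicate 2 (orange, lower bar); dark parts overlapped a peak of the other replicate and pale parts did not. Irf2 has the longest dark bars, with 13 each, and Tap2 and H2-Ab1 have long pale bars in replicate 2.

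Other genes of the same pathways had a similar share of open promoters, with higher signals. Their median signals were 3.52 in replicate 1 and 3.93 in replicate 2, against 2.94 and 3.37 for the 40 genes. They were not split by CpG content. Of 95 further genes 83 (87.4%) had a promoter peak in both replicates, against 62.4% of all genes. Receptors and kinases had one in 11 of 12. Ifngr1, a chain of the interferon gamma receptor, had 12.1 and 14.1, and Ifnar1, a chain of the type I interferon receptor, had 10.2 and 12.1. Further sensing genes had one in 12 of 15, led by Mavs, the mitochondrial adaptor of RNA sensing, at 5.65 and 6.32, and the ubiquitin ligase gene Trim25 at 4.59 and 5.60, while the kinase gene Ikbke had none.

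Further effectors had a peak in both in 18 of 22. Samhd1, which degrades nucleotides, had 4.70 and 5.67, and Trim21, a cytosolic antibody receptor, had 4.48 and 4.30. Ifi44, Ifitm1 and Oas3, all interferon-induced, had none in either replicate. Among other IRF genes and IRF2-binding partners, Irf2bpl had 9.82 and 10.1 and Irf2bp2 had 7.10 and 7.51.

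Further class I genes had one in 11 of 11, led by the chaperone genes Calr at 10.4 and 10.0 and Canx at 10.1 and 10.2. In the class II list 10 of 13 had one. Nfya, a subunit of the CCAAT-binding NF-Y, had 11.3 and 13.1 and Rfxank, an X box factor subunit, had 8.70 and 10.1, whereas H2-Oa, a class II chaperone chain, and Ctss, a protease that trims the invariant chain, had none. Further NF-kB genes had one in 16 of 16, led by Map3k14, a kinase of the non-canonical pathway, at 10.7 and 13.5 and Tnip1, a partner of TNFAIP3, at 8.56 and 9.45.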

How the data were processed

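DNase-seq files of 2 samples were used, each with 2 peak lists, a site list and a footprint list on mm10, made for each sample per the labels. Column 7 of the deposited peak lists is a signal, whose scale, caller and aligner are not given in the sources used here. The larger list was used. In the deposited site lists the p-value type column gives false discovery rates, all below 0.05, and in the footprint files it is a constant 0.01 and was not used as a measurement. The files hold no read counts, so the depth is unknown.

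Genes and start sites came from GENCODE M21, 1 record per symbol, including polymorphic pseudogene records with a protein-coding transcript. Intervals overlapped when they shared at least 1 bp. A promoter was CpG-rich when a window of 500 bp on either side of a start had an observed to expected CpG ratio of at least 0.6 and at least 55% G and C. Motifs were searched on both strands of the RefSeq GRCm38.p6 sequence, in 300 bp around the midpoint of the strongest promoter peak. A match was footprinted when it shared at least 1 bp with a footprint. Alleles of the 2 parental genomes were not separated. Sequences are from RefSeq; where a stretch overlaps an annotated exon at most 30 bases are given.

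Python 3.11.15, numpy 2.4.6, pandas 2.3.3, pysam 0.24.0 and matplotlib 3.10.9 were used. The code that assigns peaks to promoters was checked on intervals planted near start sites. That check does not bear on whether the deposited peaks were called correctly. The members, lists and motifs were chosen with earlier results of these data known. Of each further list the text names the 2 genes with the highest mean percentile and up to 2 without a promoter peak in either replicate, with Oas3 added after its values were seen because 3 such effectors were counted; of peaks away from starts it takes the strongest shared peak of each gene and names the 8 genes ranking highest by it. A gene that the rule names is not reported here. No test was run, since 1 group has no contrast. Alternatives were the promoter window, the peak list, the start sites used, the flank, the footprint overlap and leaving out each replicate.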

Additional observations from a re-analysis of the deposited data

How the results depend on the processing

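No paired analysis was possible because there is 1 group and no contrast to pair. Of 104 alternative values for 16 counts, 93 stayed within 1.5 times the reported one. The count of 35 genes with a promoter peak in both replicates ranged from 32 (stricter list) to 37 (window of 2500 bp), where Isg15 and Cd74 were gained. The 87 shared peaks away from start sites became 55 with a flank of 2 kb and 44 with no flank, and leaving out each replicate gave 123 to 134 peaks in the other alone. Genes with a footprinted ISRE, 1 as reported, numbered 0 when the match had to lie wholly under footprints, 4 when within 10 bp of one, and 3 to 6 with a replicate left out. Genes with a footprinted NF-kB match, 3 as reported, numbered 0, 7 and 4 to 5 in the same order. Genes with a footprinted CCAAT box, 8 as reported, numbered 3 when wholly covered. The cause was not tested beyond the settings' own construction. Footprint calls follow depth, which is unknown here.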
